A study of Homo sapiens with 23 samples.

Results

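This section describes nascent transcription of 9 genes of the 3-keto steroid receptor pathway during depletion of TRPS1: 3 receptor genes (PGR, NR3C1 and NR3C2) and 6 target genes that several of these receptors share (ZBTB16, FKBP5, TSC22D3, SGK1, PER1 and KLF9). They were found by Ensembl identifier among the 60605 genes of the count table, and all 9 were present and passed the filter on low counts. Most were listed for their known role. ZBTB16 was chosen by its measured course in these libraries, an early rise and a fall at 24 h, so its values are a description without a test, and counts of members that passed a test are out of the other 8.

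The libraries were PRO-seq (precision run-on sequencing), in which engaged RNA polymerases incorporate a labeled nucleotide, so that reads report ongoing transcription and not the amount of mRNA. All 23 libraries came from T47D_dTAG_TRPS1_Clone_28, 1 clone of the luminal breast cancer line T47D with a degron tag inserted at its own TRPS1 gene, which encodes a GATA-family zinc finger repressor. Cells received dTAG-13 and dTAGV-1 (50 nM each, together called dTAG), which direct the tagged protein to degradation, for 0.5, 1, 2 or 4 h (n = 4 each) or 24 h (n = 3, replicates 2 to 4), and the controls received DMSO (n = 4). All groups therefore carried the tagged allele, and no steroid hormone is named among the treatments. Libraries with the same replicate number were collected together, at a different time of the same day from the other numbers.

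Steroid receptors of this class are transcription factors that are activated by binding a hormone, and the progesterone receptor (PGR), glucocorticoid receptor (NR3C1) and mineralocorticoid receptor (NR3C2) recognize closely similar DNA elements made of a pair of inverted repeats. Genes such as FKBP5 and PER1 are therefore read as shared targets of several hormones. In breast epithelium PGR is itself a target of the estrogen receptor, and T47D cells are known for high progesterone receptor levels.

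The element shared by these receptors was searched in the genome sequence to show where its letters lie in the members. The motif was AGAACA, 3 bases of any kind, and TGTTCT, which reads the same on both strands, with at most 1 mismatch in its 12 fixed bases. From 5000 bases before the annotated start to the annotated end (hg38, GENCODE), 12 matches lay in 5 of the 9 members, or 0.94 per 100 kb, against 0.51 per 100 kb over 19970 protein-coding genes. NR3C2 held 5, TSC22D3 held 3, FKBP5 held 2, and PER1 and ZBTB16 held 1 each. No match lay in PGR, NR3C1, SGK1 or KLF9, which says only that these letters were not in those windows. The 1 exact match among the members was in an intron of FKBP5, 126.5 kb from the annotated start, and the PER1 match lay 2.0 kb inside the annotated gene. All 7 matches in the listed target genes were intronic by the GENCODE annotation. They are printed as the plus strand reads, with the fixed bases in capitals. Each substitution is given as the motif's base, the position counted from 1 at the left end, and the base found:
FKBP5, exact (chr6:35602082-35602096): AGAACAcccTGTTCT
FKBP5, T12A (chr6:35613610-35613624): AGAACAaggTGATCT
PER1, A1G (chr17:8154460-8154474): GGAACAtcaTGTTCT
ZBTB16, A4G (chr11:114220166-114220180): AGAGCAcatTGTTCT
TSC22D3, A3C (chrX:107744266-107744280): AGCACActaTGTTCT
TSC22D3, G11C (chrX:107744638-107744652): AGAACAaggTCTTCT
TSC22D3, A3C (chrX:107767844-107767858): AGCACAgtaTGTTCT

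TRPS1 recognizes GATA letters, so the 250 bases before each start in the RefSeq promoter table (GRCh38.p14) were searched on both strands for AGATAA or AGATAG as well as for TGATAA or TGATAG. The table held 25 start sites for 8 of the members, and ZBTB16 was not in it. A GATA match was found before 4 of the 25 starts, 1 each in PGR, NR3C2, FKBP5 and SGK1, against 22.3% of all 35116 promoters. The repeat unit AGAACA, searched on both strands in the same windows, was found before 0 of the 25 starts, against 12.4% of all promoters. The sequences before the outermost starts of PGR and FKBP5 are shown because these were the 2 members that passed a test, with GATA letters in capitals, 5′ to 3′ on the minus strand, which both genes use:
PGR (chr11:101129814-101130063): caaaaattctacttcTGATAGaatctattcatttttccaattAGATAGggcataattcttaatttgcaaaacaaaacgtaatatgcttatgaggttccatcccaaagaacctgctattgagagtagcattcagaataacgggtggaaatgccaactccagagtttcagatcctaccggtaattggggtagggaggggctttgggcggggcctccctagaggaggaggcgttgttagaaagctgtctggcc
FKBP5 (chr6:35728584-35728833): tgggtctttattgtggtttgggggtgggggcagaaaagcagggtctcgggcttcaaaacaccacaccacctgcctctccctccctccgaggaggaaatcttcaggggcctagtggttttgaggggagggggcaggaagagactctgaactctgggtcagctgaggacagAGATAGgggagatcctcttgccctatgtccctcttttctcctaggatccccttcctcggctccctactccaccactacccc

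Levels in the DMSO libraries differed widely between the members. Values are CPM, read counts scaled to a common library size, and were divided by the annotated gene span to compare genes. PGR stood highest, at 26.3 ± 2.04 CPM per kb (SD, n = 4), above 99.3% of 15720 protein-coding genes that passed the filter. FKBP5, a co-chaperone of HSP90 that lowers the hormone affinity of steroid receptors, followed at 1.97 ± 0.0806 CPM per kb, above 77.5% of them. PER1, a circadian clock gene, was at 0.736 ± 0.0682 CPM per kb. ZBTB16, a zinc finger transcription factor, TSC22D3, which encodes the anti-inflammatory protein GILZ, and KLF9, a Krüppel-like transcription factor, lay close together at 0.413 ± 0.0463, 0.386 ± 0.014 and 0.367 ± 0.0106 CPM per kb. In this order the libraries of ZBTB16 and TSC22D3 overlapped, as did those of TSC22D3 and KLF9, while all other neighbours did not overlap. The other 2 receptor genes were far below PGR, with NR3C1 at 0.211 ± 0.00821 and NR3C2 at 0.0848 ± 0.00428 CPM per kb. SGK1, a serum- and glucocorticoid-regulated kinase, was lowest at 0.0373 ± 0.00899 CPM per kb, above 11.5% of protein-coding genes. These levels depend on the annotated span, which reaches 148.9 kb for SGK1 and 365.9 kb for NR3C2 and covers the longest isoform, whichever isoform was transcribed.

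**Figure D1:**
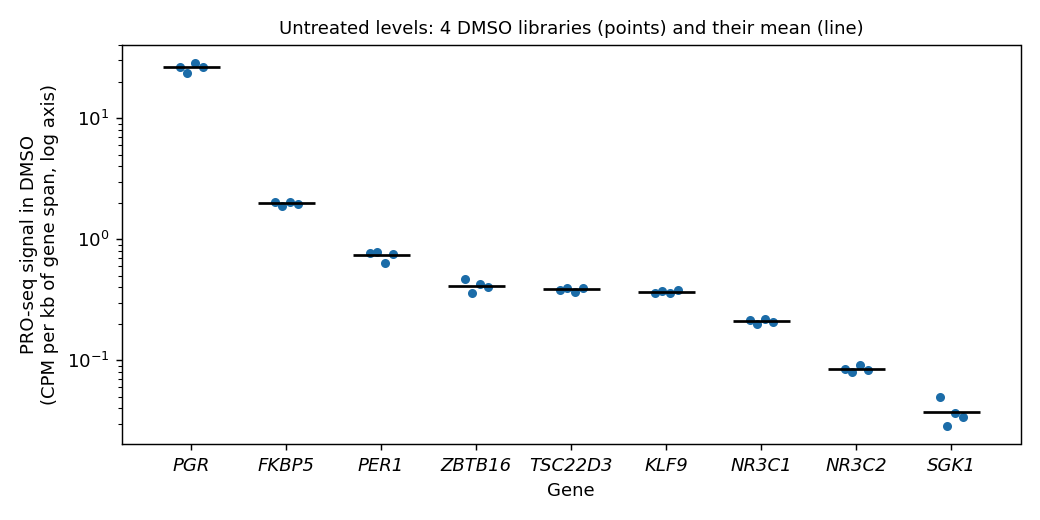
PRO-seq signal in the DMSO libraries for each of the 9 genes, in CPM per kb of annotated gene span on a log axis, with 1 point for each of 4 libraries and a line for the mean. PGR, at a mean of 26.3, stands apart from the other genes, and SGK1 is lowest at 0.0373.

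Some values have a limit set by annotation. PER1 shares 5691 bases on the same strand with the protein-coding gene ENSG00000263620, which averaged 279.7 counts per library against 114.0 for PER1, so PER1 values are uncertain. On the opposite strand, the overlaps differed in how many reads the other gene held against what the member's own density would give it if strand were ignored. The other gene's count covers its whole annotated length, while the value from the member's density covers the shared bases only. A larger count can therefore hold reads from outside the overlap and does not show how strand was used. Fewer were held by ENSG00000256947, which averaged 25.5 counts where ZBTB16's density over their 46150 shared bases would give 197.0, by ENSG00000250354, at 8.2 counts where that of NR3C2 over 62410 bases would give 56.5, and by ENSG00000287458, at 0.4 where that of FKBP5 over 1860 bases would give 36.4. More were held by NCBP2L, at 15.8 counts where that of TSC22D3 over 2444 bases would give 9.9, and by PGR-AS1, at 525.6 counts where that of PGR over 737 bases would give 185.5, against 25218.0 counts for PGR in all.

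Total counts per library ranged from 4408544 to 17571616 with a median of 9768427. Luminal markers spanned a wide range, with ESR1 between 2240 and 2690 CPM, KRT19 between 271 and 362 CPM and CDH1 between 236 and 364 CPM. Lower values were those of KRT8 (95.9 to 164 CPM), KRT18 (51.7 to 83.1 CPM) and EPCAM (28.9 to 39.3 CPM). The basal keratins KRT5 and KRT14 did not exceed 0.425 and 0.47 CPM, while TP63 had 18.3 to 32.5 CPM and ACTA2 6.7 to 10.6 CPM. Of the 4 basal or myoepithelial markers, 2 passed the filter, and the summed level of the list ranged from 29 to 30.2 CPM in DMSO and, in order of time, from 29.8 to 34.7, 31.5 to 40.6, 30 to 36.8, 34.2 to 38.8 and 36.5 to 39.5 CPM under dTAG. Within it TP63 rose at 1, 2, 4 and 24 h and, with the replicate number as a block, also at 0.5 h (log2 fold change 0.30, edgeR adjusted p = 0.0383), with 18.3 to 20.8 CPM in DMSO and 26.8 to 29.5 CPM at 24 h, and its part in the results for the members was not tested. None of the 6 luminal markers was called by the unblocked edgeR fit, which gave 1, 1, 1, 0 and 1 an unadjusted p under 0.05 in order of time, and DESeq2 called KRT19 at 1 h and 1 luminal marker at 24 h. With the block, the luminal keratin gene KRT19 fell by 0.14, 0.21, 0.14 and 0.21 on the log2 scale at 0.5, 1, 2 and 24 h (edgeR adjusted p = 0.0207, 0.000378, 0.0209 and 0.000917) and KRT8 by 0.20 at 1 h (0.0499). The summed luminal markers ranged from 3220 to 3470 CPM in DMSO and from 3030 to 3280 CPM at 24 h, and the part of these decreases in the lower PGR and FKBP5 values was not tested. ESR1, the highest of these markers, was not called by the blocked edgeR fit, which gave it an unadjusted p under 0.05 at 2, 4 and 24 h. The summed fibroblast, endothelial and immune markers stayed between 17.3 and 25.2 CPM over all groups. TRPS1 itself is depleted as a protein, so its transcription does not check the treatment, and it was higher in the dTAG library in 19 of 19 same-numbered pairs.

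The comparisons with DMSO ask whether members changed transcription after TRPS1 depletion. Of the 8 members tested, PGR and FKBP5 were the ones that passed, both downward, and the others did not pass at any time. Without the replicate number in the model, edgeR's quasi-likelihood test called 0 of 8 at 0.5, 1, 2 and 4 h and 1 of 8 at 24 h, which was FKBP5, at an FDR of 0.1. Of all 26057 genes tested, this fit called 0.476%, 1.25%, 0.733%, 0.833% and 0.863% at 0.5, 1, 2, 4 and 24 h. At an unadjusted p under 0.05 the members numbered 1, 3, 2, 2 and 2 at these times. The share of all genes at this unadjusted threshold is not given here, and the shares above are for the FDR. Unadjusted counts of members, markers and listed genes therefore cannot be read as more or fewer than among all genes. DESeq2 called 0, 0, 1, 0 and 1 members, with PGR at 2 h and FKBP5 at 24 h, against 1%, 1.27%, 1.1%, 1.13% and 1.32% of all 26057 genes at these times.

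With the replicate number as a block, the counts became 0 of 8 at 0.5 h, 1 of 8 at 1, 2 and 4 h (PGR) and 2 of 8 at 24 h (PGR and FKBP5). The share of all genes called by the blocked fit at these 5 times was 2.48%, 3.25%, 2.43%, 2.49% and 2.65%. Over the time course from DMSO to 4 h, the test of any change called 0 of 8 members without the block (1.33% of 25255 genes) and 1 of 8, PGR, with it (4.6%). In the unblocked time course, 2 members had an unadjusted p under 0.05, and DESeq2 called 0 (2.21% of all genes). Between 24 h and 4 h, 0 of 8 members were called without the block (0.453% of all genes) or with it (1.77%), 1 member had an unadjusted p under 0.05 in the unblocked fit, and DESeq2 called 0 (0.791% of all genes). The median log2 fold change of the 8 members was -0.08 at 0.5 h and -0.09 at 1 h, where all genes were at 0.01 both times, and -0.03, -0.01 and -0.01 at 2, 4 and 24 h.

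PGR (ENSG00000082175; chromosome 11, 101029624 to 101129813) was the receptor gene that passed a test, with the block and in DESeq2 but not in the unblocked edgeR fit. It averaged 25218.0 counts per library, against 329.9 for NR3C1 and 331.0 for NR3C2. A receptor gene that did not pass is therefore not shown to be unchanged. The DMSO libraries had 2630, 2378, 2879 and 2642 CPM in replicates 1 to 4. In the 0.5 h group they had 2460, 2284, 2705 and 2714 CPM, followed after 1 h by 2263, 2231, 2419 and 2455 CPM. These 1 h libraries were each below the DMSO library of the same number, although the group ranges overlapped. Values of 2100, 1977, 2385 and 2502 CPM were found after 2 h, and of 2355, 2170, 2359 and 2401 CPM after 4 h. At 24 h, replicates 2, 3 and 4 had 2039, 2390 and 2439 CPM. In total PGR was lower in 18 of 19 same-numbered pairs, the exception being replicate 4 at 0.5 h.

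The decrease of PGR was already present at 1 h and was similar later. Without the block, the PGR log2 fold changes at 0.5, 1, 2, 4 and 24 h were -0.05, -0.17, -0.23, -0.18 and -0.20 ± 0.08 (SE for the last). None passed, edgeR adjusted p-values being 0.328 to 1, with the lowest at 2 h. With the block, PGR fell by 0.17 at 1 h (adjusted p = 0.00866), after 4 h it fell by 0.18 (adjusted p = 0.0047) and after 24 h by 0.21 (adjusted p = 0.00204). At 2 h the blocked adjusted p was 0.000316, and the same-numbered ratios to DMSO were 0.798, 0.831, 0.828 and 0.947. Over the alternatives tried, the adjusted p at 2 h ranged from 0.000316 to 0.875 and the log2 fold change from -0.29 to -0.21. Leaving out replicate 3 from the blocked fit ended the PGR calls at 1, 4 and 24 h (adjusted p = 0.19, 0.192 and 0.11) and left those at 2 h (0.0177) and over the time course.

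NR3C1 (ENSG00000113580; chromosome 5, 143277931 to 143435512), the glucocorticoid receptor gene, had 34.0, 31.6, 34.4 and 32.9 CPM in DMSO. At 1 h it had 27.8, 29.7, 30.5 and 29.9 CPM, all below the lowest DMSO library. This difference of -0.17 ± 0.06 (SE) on the log2 scale did not pass (edgeR adjusted p = 0.342, blocked 0.226). The means at 4 and 24 h were 32.5 ± 1.33 (SD, n = 4) and 33.8 ± 2.19 CPM (n = 3), near the DMSO mean of 33.2 ± 1.29. NR3C1 was lower in 16 of 19 pairs.

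NR3C2 (ENSG00000151623; chromosome 4, 148078762 to 148444698), the mineralocorticoid receptor gene, had 30.7, 29.5, 33.2 and 30.6 CPM in DMSO. After 2 h it had 33.9, 29.7, 34.1 and 35.8 CPM, and 4 h gave 32.7, 31.5, 35.9 and 33.8 CPM. All 8 of these libraries were above the same-numbered DMSO library, and the group ranges overlapped. The log2 fold changes of 0.10 ± 0.07 and 0.11 ± 0.07 (SE) did not pass (edgeR adjusted p = 0.875 and 0.824, blocked 0.485 and 0.457). At 24 h the mean was 30.3 ± 2 CPM (SD, n = 3).

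**Figure D2:**
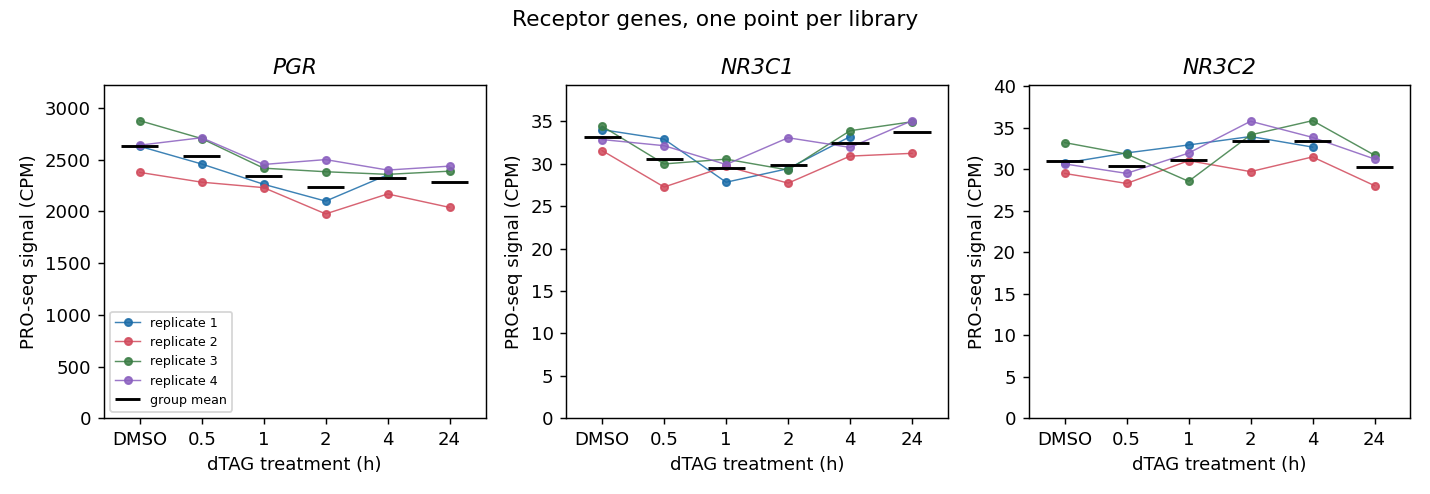
PRO-seq signal in CPM for the 3 receptor genes in DMSO and after 0.5 to 24 h of dTAG, with 1 point per library, lines joining libraries of the same replicate number and black bars for group means. PGR lies below its same-numbered DMSO library in 18 of 19 pairs, while NR3C1 and NR3C2 overlap DMSO at every time except NR3C1 at 1 h.

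FKBP5 (ENSG00000096060; chromosome 6, 35573585 to 35728583) was lower at 24 h than in any DMSO library. The DMSO libraries had 315.7, 289.9, 316.2 and 302.8 CPM, and the 24 h libraries of replicates 2, 3 and 4 had 258.5, 264.1 and 278.5 CPM. In between, the group means at 0.5, 1, 2 and 4 h were 300 ± 11.6, 288.3 ± 6.57, 292.2 ± 12.6 and 289.9 ± 10.9 CPM (SD, n = 4 each), all overlapping DMSO. FKBP5 was lower in 17 of 19 pairs. At 24 h FKBP5 fell by 0.20 ± 0.05 (SE) on the log2 scale (edgeR adjusted p = 0.0493, blocked 0.00149), and the adjusted p ranged from 0.000668 to 0.836 over the alternatives. The call was lost when any replicate number was left out of the unblocked fit (adjusted p from 0.115 to 0.836) and when replicate 3 was left out of the blocked fit (0.192). The change from 4 h to 24 h, -0.12 ± 0.05, did not pass (adjusted p = 0.502, and 0.126 with the block).

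ZBTB16 (ENSG00000109906; chromosome 11, 114059041 to 114256765), the gene selected on its course, had 92.8, 70.9, 84.0 and 79.2 CPM in DMSO. After 0.5 h it had 105.1, 85.7, 104.5 and 112.1 CPM, followed after 1 h by 109.6, 80.4, 97.1 and 102.5 CPM. Each of these 8 libraries was above its same-numbered DMSO library, and both group ranges overlapped DMSO. The 2 h mean was 88.2 ± 9.12 CPM (SD, n = 4) and the 4 h mean 76.8 ± 10.6 CPM, and at 4 h 3 of 4 pairs were lower. At 24 h the 3 libraries had 43.4, 41.5 and 47.5 CPM, below every other library of the series. On the log2 scale the differences from DMSO were 0.32, 0.25, 0.11, -0.09 and -0.89 in order of time.

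TSC22D3 (ENSG00000157514; chromosome X, 107713221 to 107777342) had 24.6, 25.4, 23.5 and 25.5 CPM in DMSO and 39.8, 27.7, 26.4 and 23.2 CPM at 4 h. This wide spread rested on replicate 1, which was also highest at 2 h with 30.2 CPM. The 4 h log2 fold change of 0.22 ± 0.12 (SE) did not pass (edgeR adjusted p = 0.777) and was as low as 0.05 without replicate 1.

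SGK1 (ENSG00000118515; chromosome 6, 134169248 to 134318112) averaged 62.3 counts per library, the fewest of the members. It had 7.40, 4.25, 5.51 and 5.04 CPM in DMSO and 10.4, 6.76, 7.75 and 5.53 CPM at 4 h. All 4 pairs were higher at 4 h, the ranges overlapped, and the log2 fold change of 0.41 ± 0.20 (SE) did not pass (edgeR adjusted p = 0.664, and 0.219 with the block). At 24 h the mean was 5.62 ± 1.23 CPM (SD, n = 3), close to the DMSO mean of 5.55 ± 1.34 CPM.

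PER1 (ENSG00000179094; chromosome 17, 8140472 to 8156506) had 12.4, 12.5, 10.2 and 12.1 CPM in DMSO and 9.51, 9.43, 9.40 and 11.8 CPM at 0.5 h. It was lower in all 4 pairs at 0.5 h and overlapped DMSO. The log2 fold change of -0.22 ± 0.10 (SE) did not pass (edgeR adjusted p = 0.644, and 0.393 with the block), and later group means lay between 10.85 and 11.07 CPM.

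KLF9 (ENSG00000119138; chromosome 9, 70384604 to 70414657) had 10.8, 11.2, 10.7 and 11.4 CPM in DMSO and 9.13, 7.73, 9.44 and 8.12 CPM at 1 h. All 4 libraries of the 1 h group were below DMSO, and the means at 2, 4 and 24 h were back at 11.07, 11.04 and 11.42 CPM. The 1 h log2 fold change of -0.36 ± 0.11 (SE) was the largest of any tested member at that time, yet the adjusted p was 0.191 in edgeR and 0.161 with the block.

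**Figure D3:**
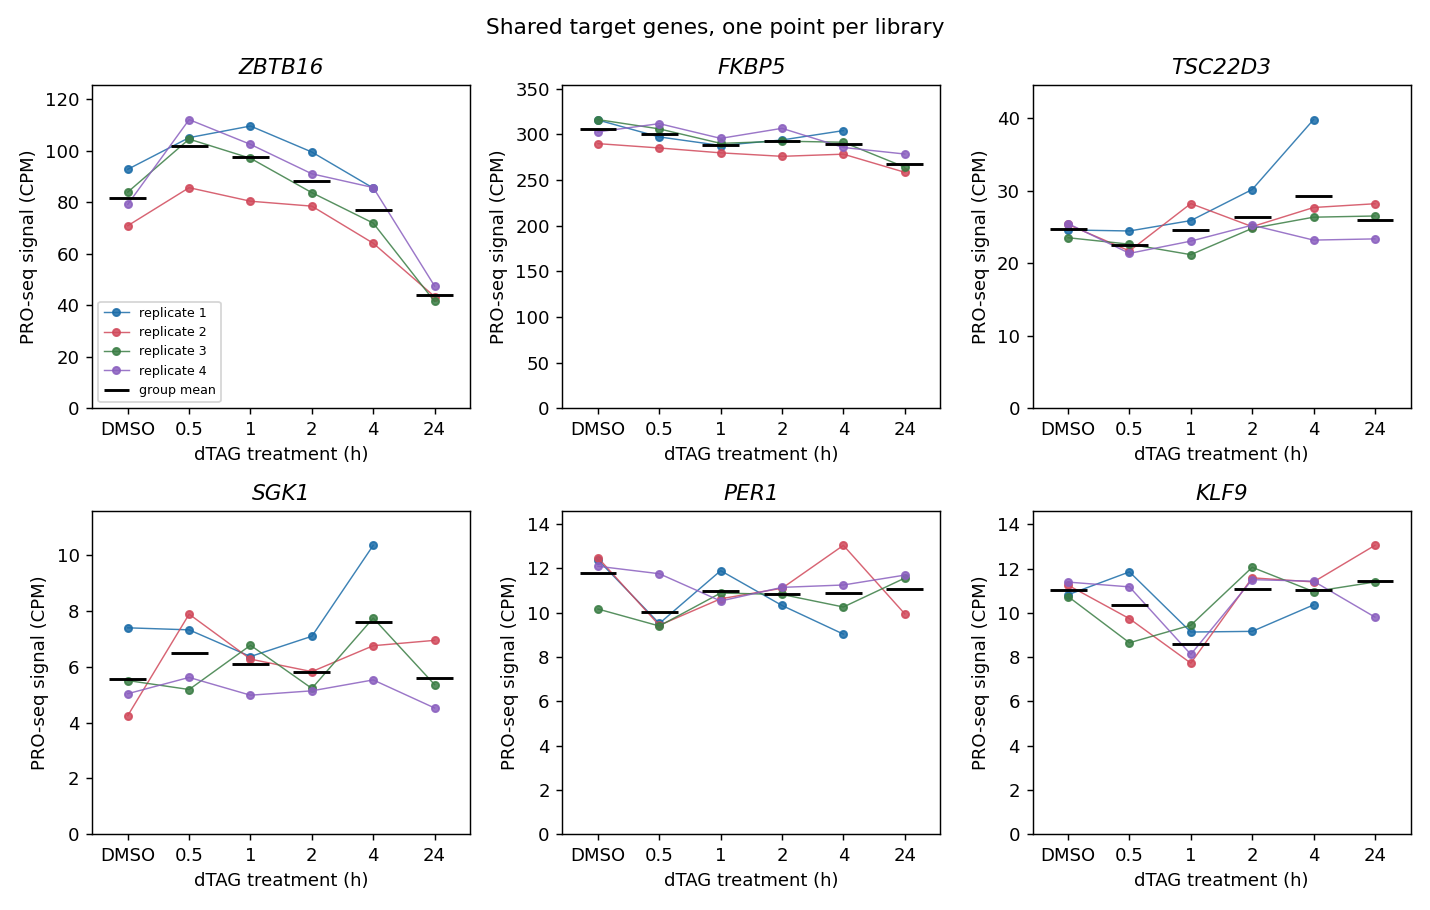
PRO-seq signal in CPM for the 6 target genes in DMSO and after 0.5 to 24 h of dTAG, with 1 point per library, lines joining libraries of the same replicate number and black bars for group means. ZBTB16 and FKBP5 lie below all DMSO libraries at 24 h, KLF9 does so at 1 h, and the highest TSC22D3 value, 39.8 CPM at 4 h, is that of replicate 1.

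**Figure D4:**
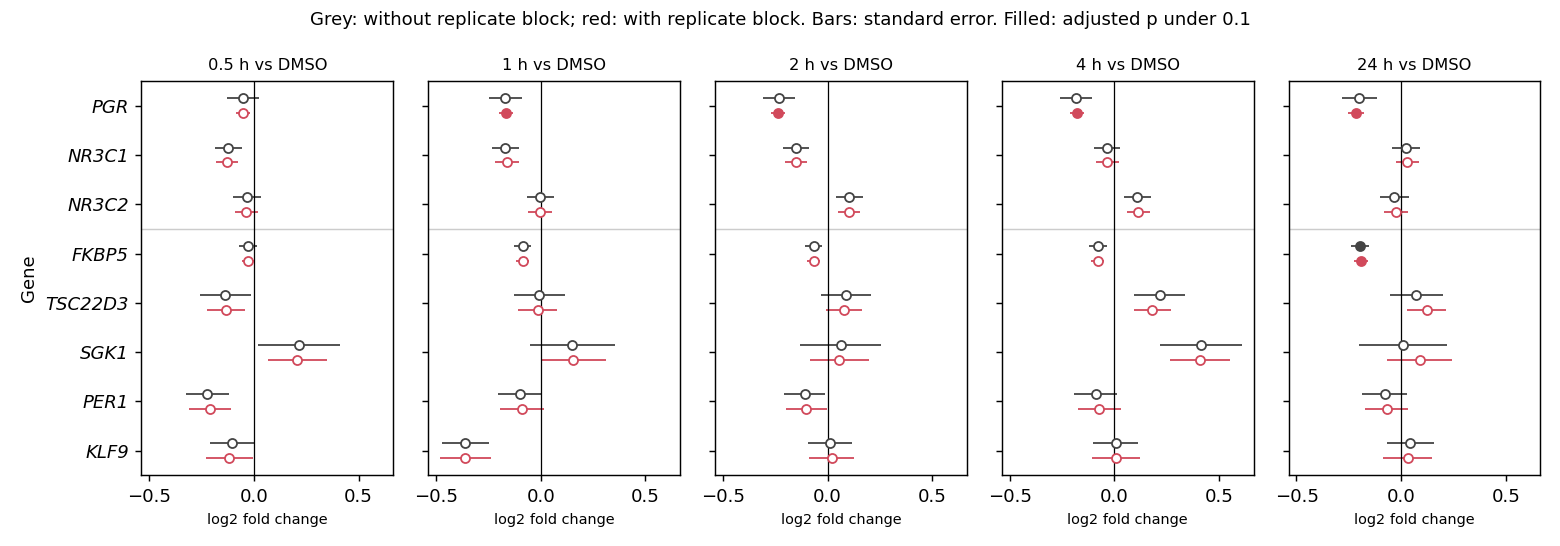
Log2 fold change against DMSO for the 8 tested members at each time, with standard errors, without the replicate block in grey and with it in red, filled where the adjusted p was under 0.1. PGR is filled in red from 1 h on, and FKBP5 is filled in both colors at 24 h.

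Members were compared across libraries after the group-independent offset of each replicate number had been removed. Over 23 libraries PGR and FKBP5 had a Pearson r of 0.75, ZBTB16 and FKBP5 0.7, and ZBTB16 and NR3C1 -0.64, as a description of libraries that share groups and scaling. Among 14148 genes with a mean of at least 100 counts, those most like PGR were AUTS2 (r = 0.936), SEMA3C (r = 0.932), which encodes a secreted semaphorin, and GRHL2 (r = 0.892), an epithelial transcription factor. The DMSO level of SEMA3C was 1130 ± 101 CPM (SD, n = 4), against 891 ± 102 CPM after 2 h and 960 ± 101 CPM (n = 3) after 24 h. Those most like ZBTB16 were SPINK5 (r = 0.931), a protease inhibitor gene, and NUSAP1 (r = 0.916) and CDC25A (r = 0.912), which act in spindle assembly and in cell cycle entry. SPINK5 had 136 ± 14.3 CPM in DMSO, 158 ± 18.5 CPM at 0.5 h and 95.7 ± 9.17 CPM at 24 h. NUSAP1 differed less in the first hours, with 76.8 ± 3.8 CPM in DMSO, 77.9 ± 3.03 CPM at 0.5 h and 64.8 ± 2.23 CPM at 24 h.

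Among 5 lists of pathway genes, the progestin response genes of breast epithelium had the most unblocked calls against DMSO. Of 9 listed, 8 were tested, and without the block 2 rose at 4 h (CALCR and ELF5), 1 rose at 24 h (CALCR) and none fell. This fit called 0.833% and 0.863% of all genes at 4 and 24 h, in either direction. The ranking of the lists thus rests on few calls from these 2 genes. CALCR, the calcitonin receptor gene, was at 41.7 ± 4.42 CPM (SD, n = 4) in DMSO, against 58 ± 4.68 CPM after 4 h and 58.6 ± 5.15 CPM (n = 3) after 24 h. It rose by 0.47 ± 0.10 (SE) and 0.49 ± 0.10 on the log2 scale (edgeR adjusted p = 0.0215 and 0.0252, blocked 5.2e-05 and 8.84e-05). Over the alternatives these p-values reached 0.328 and 0.526, as leaving out replicate 3 or 4 ended both calls and comparing 4 h with DMSO alone ended that at 4 h. ELF5, a transcription factor of alveolar differentiation, went from 142 ± 7.73 to 159 ± 3.59 CPM at 4 h and was at 143 ± 4.68 CPM at 24 h, and its edgeR adjusted p of 0.0843 at 4 h missed the threshold when any replicate was left out and passed under 2 of 10 alternatives. With the block, CALCR rose also at 1 and 2 h and ELF5 at 1 h, PRLR, the prolactin receptor gene, rose by 0.09 at 0.5 h and fell by 0.10 at 24 h (edgeR adjusted p = 0.0744 and 0.0795), and AREG, an EGF receptor ligand gene, fell by 0.23 at 24 h (0.0564). DESeq2, which had no block, also called CALCR at 2 h. Of 10 alternatives, the block alone made the calls of CALCR and ELF5 at 1 h, of PRLR at both times and of AREG. The median log2 fold change of the list was -0.09 at 4 h, opposite in sign to CALCR and ELF5, and -0.01 at 24 h.

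Few of the other glucocorticoid-type target genes were called, as was the case among all genes. Of 21 listed, 20 were tested, and the unblocked fit called SLC19A2, a thiamine transporter gene, which rose at 1 h from 49 ± 1.21 to 56.2 ± 3.96 CPM (SD, n = 4; edgeR adjusted p = 0.0538, from 0.0306 to 0.577 over 10 alternatives, of which 3 kept the call, and lost without replicate 1, 3 or 4). With the block, SCNN1A, an epithelial sodium channel subunit gene, fell by 0.33 ± 0.07 (SE) at 0.5 h and 0.34 ± 0.08 at 1 h (edgeR adjusted p = 0.0226 and 0.0242). DESeq2, which had no block, also called SCNN1A at both times. The unblocked edgeR fit did not (adjusted p = 0.157 and 0.103), and 2 of 10 alternatives made the call at each time. SCNN1A was at 25.9 ± 2.13 CPM in DMSO, 20.5 ± 1.1 CPM at 0.5 h and 26.3 ± 3.78 CPM at 4 h (SD, n = 4 each). BIRC3, an inhibitor of apoptosis, rose with the block by 0.37 ± 0.09 at 4 h (edgeR adjusted p = 0.0315). Its unblocked edgeR adjusted p was 0.257, and of 10 alternatives the block alone made the call. The list's median log2 fold change lay between -0.03 and 0.04 at all times. Of all genes, the unblocked fit called 0.476% to 1.25% against DMSO, the blocked fit 2.43% to 3.25% and DESeq2 1% to 1.32%. Counts this small in a list of this size cannot be read as fewer than among all genes.

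Of 15 receptor chaperones and coregulators, all tested, none was called against DMSO by the unblocked edgeR fit, in which 2, 1, 0, 0 and 0 had an unadjusted p under 0.05 from 0.5 to 24 h, and DESeq2 called 1 at 0.5 h. With the block, 2, 1, 1, 0 and 0 of the 15 passed against DMSO from 0.5 to 24 h, all downward. The blocked fit called 2.48%, 3.25%, 2.43%, 2.49% and 2.65% of all genes at these times. At 0.5 h these were 354 genes down and 291 up. The unblocked edgeR fit called 0.476% to 1.25% of all genes over the same times, and DESeq2 called 1% at 0.5 h. FKBP4, the co-chaperone that acts opposite to FKBP5 on hormone binding, fell with the block by 0.19 at 0.5 h and 0.17 at 1 h (edgeR adjusted p = 0.0248 and 0.0444). NCOA3, a coactivator, fell by 0.12 at 0.5 h and NRIP1, a corepressor, by 0.13 at 2 h (edgeR adjusted p = 0.0513 and 0.0765). Of 10 alternatives, the calls of FKBP4 and NRIP1 were made in 1 only, the block, and that of NCOA3 in 2.

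Genes of steroid ligand metabolism (9 of 10 tested) and clock genes (13 of 14 tested) were not called at any time in edgeR with or without the block or in DESeq2. Against DMSO these fits called 2.43% to 3.25%, 0.476% to 1.25% and 1% to 1.32% of all genes, in this order with the block first. An absence of calls in lists this small therefore cannot be read as less change than among all genes. In the unblocked fit, unadjusted p-values under 0.05 were found for 0, 2, 1, 1 and 1 metabolism genes and 0, 3, 1, 0 and 0 clock genes from 0.5 to 24 h.

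**Figure D5:**
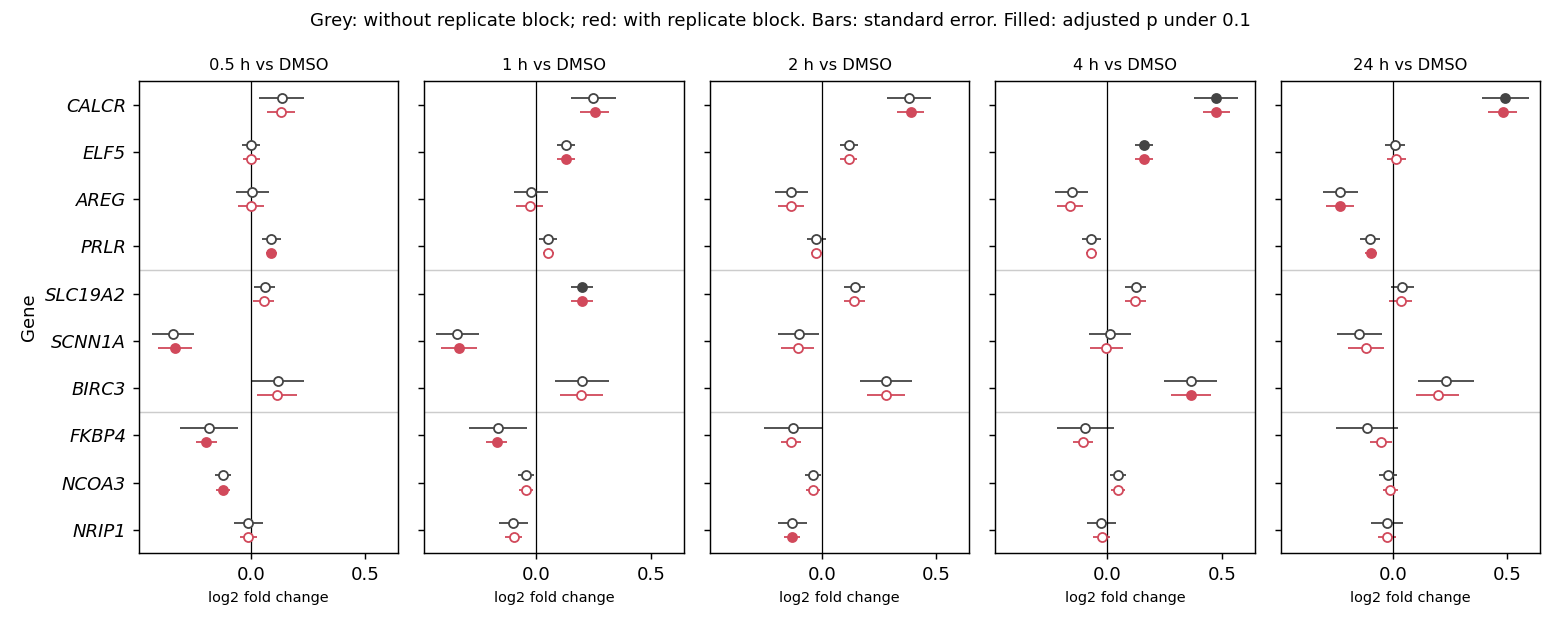
Log2 fold change against DMSO, with standard errors, for the 10 genes called in the lists of progestin response genes (top), glucocorticoid-type targets (middle) and chaperones and coregulators (bottom), without the replicate block in grey and with it in red, filled where the adjusted p was under 0.1. CALCR is filled in grey at 4 and 24 h, and the filled points of the chaperone and coregulator genes lie to the left of 0.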

How the data were processed

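PRO-seq of 23 libraries was analysed. The values the authors deposited are raw read counts per gene, whole numbers for 60605 Ensembl identifiers. Per the study's methods they removed adapters (cutadapt), collapsed duplicates by a random molecular identifier, removed ribosomal reads, aligned with bowtie2 and counted with bedtools. The labels name hg38 as the build. The annotation and the use of strand in counting are not given in the sources used here.

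Symbols and spans came from GENCODE release 44, which matched 60463 identifiers. Tests were run with edgeR 4.0.16 under R 4.3.3 (TMM scaling, filterByExpr with a minimum count of 10 and a total of 15, glmQLFit, glmQLFTest), keeping 26057 genes, or 25255 for DMSO to 4 h. P-values are two-sided, with Benjamini-Hochberg adjustment over every gene kept, and a gene was called at an FDR under 0.1, the study's threshold. A standard error was obtained by dividing the log2 fold change by the root of F. The fits were tested on simulated data.

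The main fit had no replicate term, since the study names none. Labels state that replicates were treated and collected at different times, so a number marks a shared harvest. Deviations from the group mean correlated between same-numbered libraries at a mean r of 0.777, 0.245, 0.676 and 0.325 for replicates 1 to 4, and the common dispersion fell from 0.0249 to 0.00489 with the number as a block. Blocked results are therefore given where the block changed a call, for the tested members and, against DMSO, for the listed genes. Nothing states that replicates were separate cultures beyond their own dishes, so p-values measure the spread between these harvests of 1 clone.

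Alternatives were median-of-ratios factors, total counts only, no filter, DESeq2 1.42.0, the block, each replicate left out, and 2 groups alone. The members, gene lists and tests were chosen with earlier results of these data known. One gene of the chaperone and coregulator list is not reported here, and that list's counts leave it out. Named genes are all members, at most 4 called genes per list by smallest p against DMSO, and the 3 genes most correlated with PGR and with ZBTB16. Reads were counted after collapsing identifiers, and the spread between libraries goes beyond counting error.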

Additional observations from a re-analysis of the deposited data

Results flagged for a closer look

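Of 45 groups of 4 libraries checked for a library far from the others (9 genes in 5 groups), 3 were flagged, where chance flags about 1 in 20. TSC22D3 in replicate 1 at 2 h, with 30.2 CPM, stood above the other 3 libraries, which lay between 24.8 and 25.3 CPM. PER1 in replicate 3 of DMSO, with 10.16 CPM, stood below the rest, and PER1 in replicate 4 at 0.5 h, with 11.76 CPM, stood above the rest, and PER1 is uncertain through its overlap with ENSG00000263620. ZBTB16 was above its same-numbered DMSO library in all 4 pairs at 0.5 h (0.32 on the log2 scale) and below it in all 3 pairs at 24 h (-0.89). This difference was not tested, since the gene was chosen for it.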

How the results depend on the processing

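The number of members called moved with the replicate block, to 1 at 1 h, 2 h, 4 h and over the time course and to 2 at 24 h. DESeq2 called 1 member at 2 h. At 24 h the count was 0 with total counts only, without the low-count filter and with the 2 groups compared alone, and the cause was not tested. Leaving out 1 replicate, without or with the block (the latter chosen after seeing the data), gave between 0 and 1 members at 1, 2 and 4 h and over the time course and between 0 and 2 at 24 h. At 0.5 h and for 24 h against 4 h the count was 0 under all alternatives tried.

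Directions turned only in comparisons where the member was not called. With total counts only, KLF9 at 4 h was -0.02 and PGR at 24 h against 4 h was 0.05 on the log2 scale. Leaving out 1 replicate gave the following log2 ranges, first without and then with the block. They were -0.07 to 0.04 and -0.09 to 0.04 for TSC22D3 at 1 h, -0.04 to 0.1 and -0.03 to 0.11 for SGK1 at 2 h, and -0.05 to 0.07 and -0.04 to 0.07 for KLF9 at 2 h. At 24 h against DMSO they were -0.01 to 0.06 and 0 to 0.05 for NR3C1, -0.25 to 0.14 and -0.1 to 0.18 for SGK1, -0.18 to 0.02 and -0.21 to 0.02 for PER1, and -0.04 to 0.15 and -0.05 to 0.14 for KLF9. For 24 h against 4 h they were -0.05 to 0.03 and -0.06 to -0.01 for PGR, -0.22 to 0.01 and -0.11 to 0.02 for TSC22D3, -0.06 to 0.18 and -0.1 to 0.16 for PER1, and -0.04 to 0.15 and -0.05 to 0.13 for KLF9. Besides the calls of PGR and of listed genes given in the report, the block changed no call of the 8 members tested. Depth limits SGK1, PER1 and KLF9 most, at means of 62.3, 114.0 and 111.1 counts per library.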
